A study of Danio rerio with 10 samples.

Results

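The minichromosome maintenance (MCM) genes were followed in the brain of adult zebrafish. They were taken as the 8 rows of the count table with the Ensembl identifiers of *mcm2* (ENSDARG00000102798), *mcm3* (ENSDARG00000024204), *mcm4* (ENSDARG00000040041), *mcm5* (ENSDARG00000019507), *mcm6* (ENSDARG00000057683), a second row with the symbol *mcm6* (ENSDARG00000033231), *mcm7* (ENSDARG00000101180) and *mcm10* (ENSDARG00000045815), out of 32266 rows in all. RNA was sequenced from 10 libraries, each made from 2 brains of 6-month-old fish of the Tübingen strain. The fish were *ppp2r2c* mutants given methylphenidate (MPH, labelled Ritalin) at 1.08 mg/kg (3 libraries), *ppp2r2c* mutants given valproate at 300 mg/kg (3 libraries), *ppp2r2c* mutants with no drug in their labels (2 libraries, called vehicle in the study) and wild-type fish (WT, 2 libraries). Both drugs were dissolved in PBS, soaked into the food and given for 3 days.

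All mutant libraries carried the same homozygous allele (ppp2r2c m/m in the labels), made with CRISPR-Cas9 and described in the study as a small frameshift deletion in the gene for a brain regulatory subunit of the phosphatase PP2A. The mutation was in every cell of the fish and not in neurons alone. No WT fish received a drug, so a drug effect could be compared only within the mutant. The labels do not say that the pools came from separate tanks or clutches, and p-values therefore measure the spread between these pools. The study named MCM genes from these same libraries, so their direction here is not independent evidence.

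The proteins of *mcm2* to *mcm7* form a ring of 6 different subunits that is loaded onto DNA at replication origins in G1 phase and that unwinds the double helix once S phase starts. The genes are classical targets of E2F transcription factors and are high in cells that divide, while resting and fully differentiated cells lose them. The adult zebrafish brain keeps dividing radial glia and progenitors in many zones, and in a whole-brain library these cells are a minority. The libraries are bulk samples, so a lower level can come from fewer cells with the transcript or from less transcript per cell, and the counts cannot tell these apart.

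The study measured *mcm2*, *mcm5* and *mcm6* by RT-qPCR as well, and its primers are printed here because they define which transcripts that assay read. Each pair is given 5′ to 3′ in lower case, forward before reverse. They were not matched to a transcript here, and whether the *mcm6* pair also fits the second *mcm6* row was not tested.
mcm2 forward: tcgcaagtattggacccttca
mcm2 reverse: caccttgtgctttccacctg
mcm5 forward: aactcgcgctgctctgtatt
mcm5 reverse: gccaaagtcatgtctcgctg
mcm6 forward: aagccagttcctcaagcatgt
mcm6 reverse: gtcaatgcagcaaacaccgt

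The libraries held 19224942 to 25851076 reads on genes, and log expression correlated between libraries at 0.96 to 0.9875. MPH replicate 1 stood apart in having the most reads (25851076) and the fewest genes with a read (21142, against 22721 to 23618 in the other 9 libraries), so MPH results are given without it too. Neuronal markers summed to 8504 to 10200 CPM (read counts scaled to the library total) in every library, while skeletal muscle markers stayed at 6.32 to 29.8 CPM. Markers of retina, lens and pineal reached 144.6 CPM in valproate replicate 2 and 89.9 CPM in WT replicate 2, against 8.74 to 17.9 CPM in the other 8 libraries. The targeted gene, taken by its symbol (PPP2R2C, ENSDARG00000056797), had 39.2 to 70.6 CPM in the 6 drug-treated mutant libraries, 46.3 and 46.7 CPM in mutant vehicle and 50.3 and 54.6 CPM in WT. A second row, ppp2r2cb (ENSDARG00000062277), had 17.8 to 30.6 CPM in the drug-treated mutants, 18.3 and 17.7 CPM in mutant vehicle and 26.4 and 28.5 CPM in WT. The study describes less mRNA from the mutant allele. In both rows the mutant vehicle libraries were below WT while the drug-treated mutants overlapped WT, so the counts of the targeted gene did not by themselves tell mutant from WT libraries.

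Reads were found for all 8 members, but the second *mcm6* row had only 1 read in all 10 libraries, in mutant vehicle replicate 2. It was under the floor of 3 counts per library everywhere and was tested in no comparison. The *mcm6* value below therefore comes from ENSDARG00000057683, and reads that fit both rows equally well could not be assigned to either. The other 7 members passed the filter on low counts in 5 comparisons, and 6 of them passed it between the drugs, where *mcm10* had too few reads. Levels are CPM scaled by TMM over all 10 libraries. They compare libraries for 1 gene and not 1 gene with another, since gene lengths were not used.

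*mcm2* was highest in the mutant vehicle brains. Its level was 13.5, 7.63 and 6.58 CPM in MPH-treated mutant brains, 8.63, 6.07 and 5.72 CPM in valproate-treated mutant brains, 35.7 and 25.8 CPM in mutant vehicle brains, and 11.5 and 9.52 CPM in WT brains. Both mutant vehicle libraries lay above all other libraries, with 813 and 568 reads against 123 to 306. The protein of *mcm2* pairs with that of *mcm5* at the gate through which the ring opens, and *mcm5* had 7.47, 5.16 and 5.60 CPM with MPH, 4.02, 4.14 and 2.21 CPM with valproate, 19.4 and 13.2 CPM in mutant vehicle brains and 6.19 and 2.95 CPM in WT brains. Again only the mutant vehicle libraries stood above the rest, and the 3 valproate libraries lay below the 3 MPH libraries.

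The subunits *mcm4* and *mcm6* form, together with *mcm7*, the part of the ring with helicase activity of its own. *mcm4* had 10.5, 8.11 and 4.79 CPM with MPH, 7.37, 5.13 and 4.34 CPM with valproate, 20.1 and 15.2 CPM in mutant vehicle brains and 6.01 and 5.60 CPM in WT brains. *mcm6* had 7.08, 7.23 and 6.33 CPM with MPH, 5.62, 7.54 and 3.64 CPM with valproate, 21.9 and 15.6 CPM in mutant vehicle brains and 8.51 and 5.03 CPM in WT brains. Both genes were highest in the 2 mutant vehicle libraries, and the drug-treated and WT libraries overlapped each other.

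*mcm3*, which lies beside *mcm5* in the ring, had another order. It had 22.6, 16.3 and 9.19 CPM with MPH, 10.6, 10.9 and 4.98 CPM with valproate, 24.1 and 16.2 CPM in mutant vehicle brains and 7.42 and 8.60 CPM in WT brains. The MPH libraries spanned the range from just above WT to the mutant vehicle level, and 2 of the 3 reached or passed the lower mutant vehicle library. The valproate libraries were below both mutant vehicle libraries and overlapped WT.

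*mcm7*, the subunit that completes the ring, was not highest in the mutant vehicle brains. It had 51.3, 38.5 and 67.9 CPM with MPH, 27.6, 46.4 and 45.4 CPM with valproate, 57.8 and 49.8 CPM in mutant vehicle brains and 49.8 and 73.4 CPM in WT brains. WT replicate 2 was the highest library and valproate replicate 1 the lowest, and the valproate libraries lay below all mutant vehicle and WT libraries while the other groups overlapped. *mcm10*, whose protein joins the helicase after loading and is not part of the ring, had few reads. It had 10, 3 and 16 reads with MPH, 11, 8 and 7 with valproate, 41 and 21 in mutant vehicle brains and 11 and 12 in WT brains, and the 2 mutant vehicle libraries were again the highest.

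**Figure D1:**
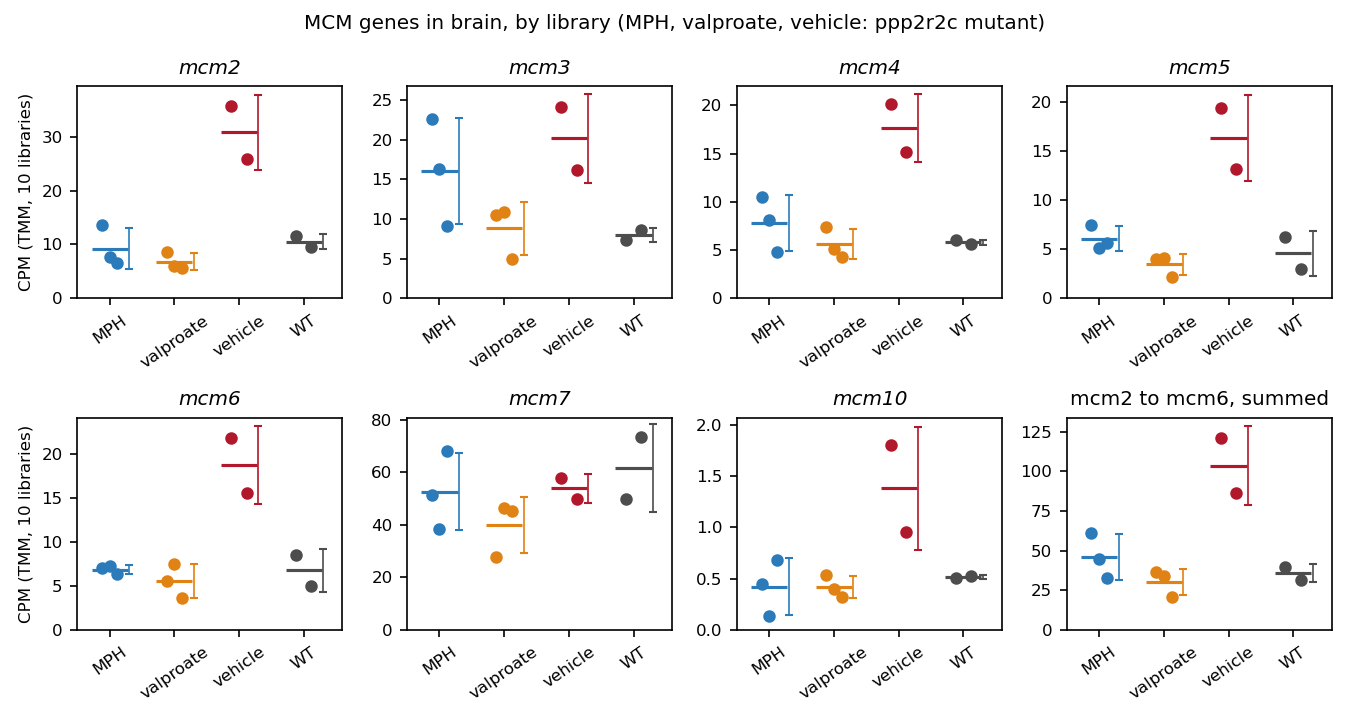
Level of 7 MCM genes and the sum of *mcm2* to *mcm6* in each library (CPM, TMM scaling over 10 libraries), with 1 point per library, a line at the group mean and a bar of 1 SD on either side. The groups are MPH-treated, valproate-treated and vehicle *ppp2r2c* mutants and WT, and the 2 vehicle mutant libraries lie above all others in every panel but those of *mcm3* and *mcm7*.

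The first comparison asked how the mutant brain differed from WT without drug. *mcm2* to *mcm6* were 2.53 to 3.58 times as high in mutant vehicle as in WT brains and *mcm10* was 2.68 times as high, while *mcm7* was close to its WT level. Summed over *mcm2* to *mcm6*, the level was 103.7 ± 24.9 CPM in mutant vehicle and 35.7 ± 5.61 CPM in WT brains (SD, n = 2 each). In the main edgeR fit (with a filter on low counts and TMM scaling) none of the 7 genes passed the threshold over all genes. DESeq2's Wald test called *mcm2* to *mcm6*, and so did edgeR with no filter.

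For *mcm2* the log2 fold change was 1.56 (standard error 0.22, 95% interval 1.05 to 2.06), and the adjusted p from edgeR was 0.0505. *mcm4* had 1.61 (standard error 0.23) and the same adjusted p, so both sat just outside the threshold of 0.05. *mcm5* had the highest estimate, 1.84, with a wider interval of 0.99 to 2.69 and an adjusted p of 0.143. Its WT pools lay further apart than those of *mcm2*, at 6.19 and 2.95 CPM. *mcm6* had 1.48 (adjusted p = 0.149), *mcm3* 1.34 (adjusted p = 0.115) and *mcm10* 1.42 with an interval of −0.19 to 3.03 (adjusted p = 0.545).

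*mcm7* had a log2 fold change of −0.19 with a 95% interval of −0.64 to 0.26 (adjusted p = 0.783). That interval ended below 0.78, the lowest bound among *mcm2* to *mcm6*; the difference between *mcm7* and the other subunits was not itself tested. The sign of the *mcm7* value turned without WT replicate 2, to 0.116.

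Over the 7 members tested, the median log2 fold change was 1.48, against −0.006 over 19695 genes, with 6 members higher and 1 lower. By edgeR's adjusted p 0 of the 7 were called, where 0.193% of all genes were. At an unadjusted p under 0.05, 5 of 7 were higher (*mcm2* to *mcm6*), where 4.8% of all genes were called higher. In 6 of 7 both mutant vehicle libraries were above both WT libraries, as in 20.5% of all genes. The count of adjusted calls depended on the tool, with 5 by DESeq2's Wald test, and on single libraries, with 5 without WT replicate 1, 5 without WT replicate 2, 1 without mutant vehicle replicate 2 and 0 without mutant vehicle replicate 1. Each of these 4 fits leaves 1 group with a single library, which is assumed to vary like the pair in the other group. Shares of all genes called are not given for DESeq2 or for these fits, so their counts cannot be set against such a share.

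The second comparison asked what MPH did in the mutant brain. MPH is a stimulant that blocks dopamine and noradrenaline uptake, and the study used it as an activator of PP2A. The study's reagent list gives its MPH product as a ritalinic acid hydrochloride solution. *mcm2*, *mcm4*, *mcm5* and *mcm6* were at 0.30 to 0.44 times their mutant vehicle level in MPH-treated mutant brains and *mcm10* at 0.31 times, while *mcm3* was at 0.79 times and *mcm7* at 0.98 times. The sum of *mcm2* to *mcm6* was 46.0 ± 14.4 CPM with MPH (SD, n = 3) and 103.7 ± 24.9 CPM with vehicle (SD, n = 2). In the main edgeR fit no member passed the threshold over all genes, while DESeq2's Wald test and edgeR with no filter called *mcm2*, *mcm5* and *mcm6*.

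*mcm6* had a log2 fold change of −1.45 (standard error 0.25) and the lowest adjusted p of the members, 0.0844 (edgeR). The 3 MPH pools of *mcm6* were the closest of any group for that gene, at 6.88 ± 0.48 CPM (SD, n = 3), against 18.8 ± 4.44 CPM with vehicle (SD, n = 2). *mcm2* had −1.74 (standard error 0.32, adjusted p = 0.11), *mcm5* −1.42 (standard error 0.29, adjusted p = 0.127) and *mcm4* −1.18 (standard error 0.34, adjusted p = 0.246). *mcm10* had −1.70 with an interval of −3.60 to 0.19 (adjusted p = 0.473).

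*mcm3* had a log2 fold change of −0.34 with an interval of −1.15 to 0.48 (adjusted p = 0.767), which leaves room for a decrease of over 1 on the log2 scale. Its highest MPH library was replicate 1, the library with the fewest genes, and without it the value was −0.65 (adjusted p = 0.61). *mcm7* had −0.03 with an interval of −0.58 to 0.52 (adjusted p = 0.975), and its sign turned to 0.149 without MPH replicate 2 and to 0.0731 without mutant vehicle replicate 1.

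Of 7 members tested, 7 were lower and the median log2 fold change was −1.42, against 0.008 over 19907 genes. By edgeR's adjusted p 0 of 7 were called, where 0.216% of all genes were, and at an unadjusted p under 0.05, 4 of 7 were lower, where 4.97% of all genes were. In 5 of 7 all MPH libraries were below both vehicle libraries, as in 15.9% of all genes. DESeq2's Wald test called 3, and edgeR called the same 3 without MPH replicate 3. Without MPH replicate 1 the count stayed at 0 with a median of −1.46. No share of all genes is given for these fits either.

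The third comparison asked the same of valproate, an anticonvulsant that also inhibits histone deacetylases. *mcm2* fell to 6.80 ± 1.59 CPM in valproate-treated mutant brains (SD, n = 3), against 30.8 ± 6.99 CPM in mutant vehicle brains (SD, n = 2). Its log2 fold change was −2.19 (standard error 0.23, 95% interval −2.74 to −1.64) at an adjusted p of 0.0275 (edgeR). In the main edgeR fits no other MCM gene was called in any of the 6 comparisons. The call was lost without valproate replicate 2 (adjusted p = 0.104), without mutant vehicle replicate 1 (0.487) and without mutant vehicle replicate 2 (0.223), while the log2 fold change stayed between −2.41 and −1.93 in these 3 fits. With 1 vehicle library left, the spread comes from the valproate libraries alone and the lone library is assumed to vary like them.

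The other ring subunits but *mcm7* were at 0.21 to 0.43 times their mutant vehicle level. *mcm5* had the estimate furthest from 0, −2.25 (standard error 0.32, adjusted p = 0.0573), and *mcm4* had −1.66 (standard error 0.27, adjusted p = 0.0707). *mcm6* had −1.76 (standard error 0.31, adjusted p = 0.0766) and *mcm3* −1.21 (standard error 0.34, adjusted p = 0.161). *mcm10* had −1.73 with an interval of −3.11 to −0.34 (adjusted p = 0.211).

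*mcm7* was at 0.73 times its vehicle level, with a log2 fold change of −0.45 and an interval of −0.97 to 0.07 (adjusted p = 0.36). All 3 valproate pools lay below both vehicle pools for *mcm7*, by a margin of 46.4 against 49.8 CPM at the nearest. The sum of *mcm2* to *mcm6* was 30.3 ± 8.23 CPM with valproate (SD, n = 3) and 103.7 ± 24.9 CPM with vehicle (SD, n = 2).

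Of 7 members tested, 7 were lower and the median log2 fold change was −1.72, against 0.004 over 19850 genes. The 1 adjusted call of 7 stands against 0.131% of all genes. At an unadjusted p under 0.05, 6 of 7 were lower, where 7.82% of all genes were, and in 7 of 7 the valproate libraries were all below the vehicle libraries, as in 17.4% of all genes. DESeq2's Wald test called 5, *mcm2* to *mcm6*, again with no share of all genes given. The 3 comparisons described so far share the 2 mutant vehicle libraries, which were the highest for nearly every member, so they are not independent of each other.

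**Figure D2:**
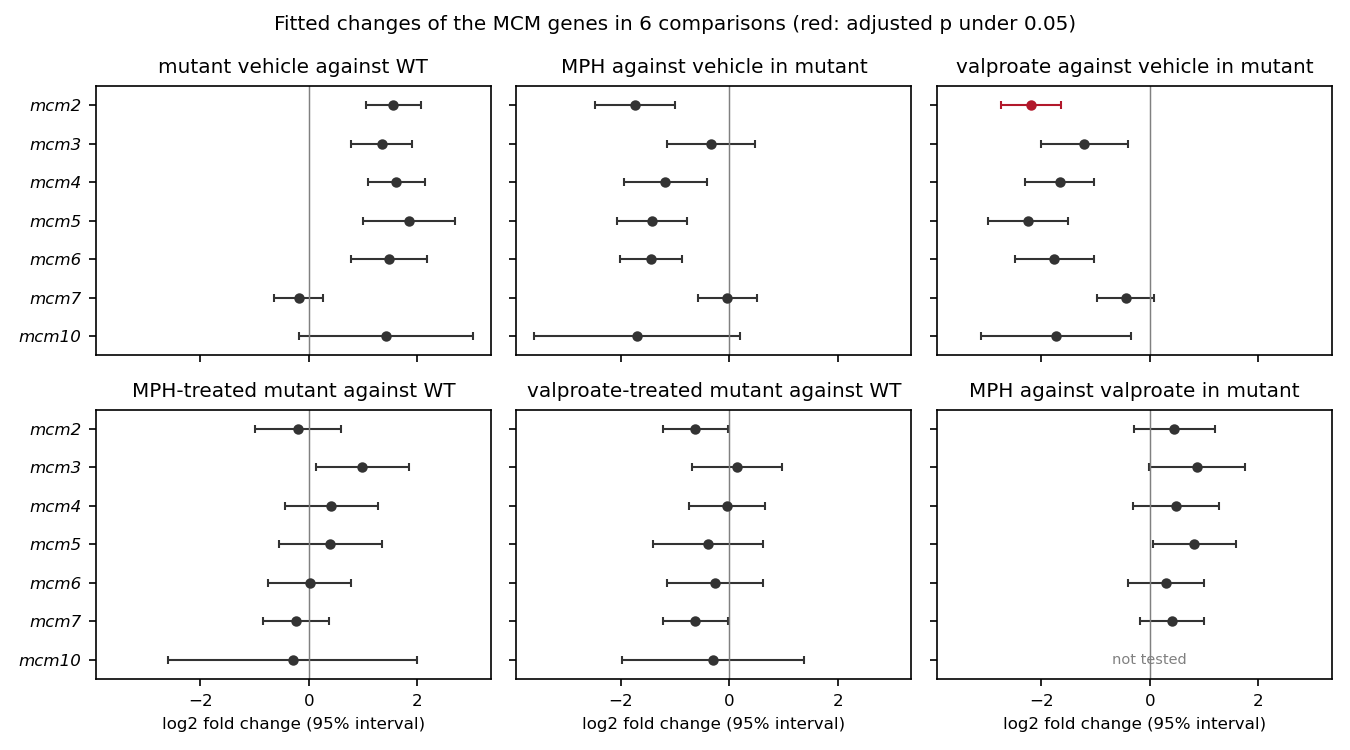
Log2 fold change of each MCM gene in 6 comparisons (edgeR), first-named group over the second, with 95% intervals. Only *mcm2* with valproate against vehicle had an adjusted p under 0.05, and the *mcm7* interval spans 0 in every panel but that of valproate-treated mutants against WT.

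The drug-treated mutants were also set against WT, which does not use the mutant vehicle libraries but shares the WT libraries with the first comparison. With MPH, the median log2 fold change over 7 members was 0.015, with 4 higher and 3 lower. *mcm3* lay furthest from WT, with 16.03 ± 6.71 CPM with MPH (SD, n = 3) and 8.01 ± 0.83 CPM in WT (SD, n = 2). It was the 1 of 7 members with every MPH library above both WT libraries, as in 15.6% of all genes, so this is no more than that share. Its log2 fold change was 0.99 (interval 0.14 to 1.84, unadjusted p = 0.0277, adjusted p = 0.383 in edgeR), and it was 0.67 without MPH replicate 1. It was the 1 of 7 members higher at an unadjusted p under 0.05 in edgeR, where 6.12% of all genes were. Without MPH replicate 1, or without MPH replicate 2, no member had an unadjusted p under 0.05. By adjusted p, 0 of 7 were under 0.05 in edgeR or in DESeq2, where edgeR called 0.194% of all genes.

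For the other members the MPH and WT pools overlapped. *mcm2* had −0.20 (interval −0.999 to 0.603), *mcm6* 0.01 (interval −0.75 to 0.78) and *mcm7* −0.23 (interval −0.84 to 0.37). The intervals of *mcm4* (−0.45 to 1.28) and *mcm5* (−0.54 to 1.34) reached past 1 on the log2 scale, so a level equal to that of WT was not shown. Without WT replicate 1 the median was 0.45.

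With valproate, the median against WT was −0.298, with 1 member higher and 6 lower. *mcm2* had 6.80 ± 1.59 CPM with valproate (SD, n = 3) and 10.5 ± 1.41 CPM in WT (SD, n = 2). Its log2 fold change was −0.62 (interval −1.23 to −0.02, adjusted p = 0.298 in edgeR). *mcm7* had 39.8 ± 10.6 CPM with valproate (SD, n = 3) and 61.6 ± 16.7 CPM in WT (SD, n = 2), a log2 fold change of −0.63 (interval −1.23 to −0.02, adjusted p = 0.295 in edgeR). In these 2 of 7 members all valproate libraries were below both WT libraries, as in 17.8% of all genes. These were the 2 of 7 lower at an unadjusted p under 0.05, where 7.06% of all genes were, and 0 of 7 had an adjusted p under 0.05 in edgeR or DESeq2, where edgeR called 0.115% of all genes.

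*mcm3*, *mcm4*, *mcm5*, *mcm6* and *mcm10* overlapped between valproate and WT pools, with log2 fold changes of −0.40 to 0.14. Without WT replicate 1 the median was 0.004, so the sign of the median rested on that pool.

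Between the drugs, the question was whether MPH and valproate left different MCM levels in the mutant. All 6 members tested had a higher estimate with MPH than with valproate, with a median log2 fold change of 0.464 against 0.002 over 19387 genes. *mcm5* had 6.08 ± 1.23 CPM with MPH and 3.46 ± 1.08 CPM with valproate (SD, n = 3 each), or 0.82 on the log2 scale (interval 0.06 to 1.58, unadjusted p = 0.0379), and *mcm3* had 16.03 ± 6.71 CPM with MPH and 8.82 ± 3.33 CPM with valproate, a log2 fold change of 0.87 (interval −0.01 to 1.75). *mcm5* was the 1 of 6 called at an unadjusted p under 0.05, where 2.25% of all genes were called higher.

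All 6 had an adjusted p of 0.997 in edgeR, which called 0 of 19387 genes (0%), with 787 at an unadjusted p under 0.05; DESeq2 called 40 genes and no MCM gene among them. Without MPH replicate 1 the median was 0.276. The 2 drugs differ in dose and kind, so this sets 2 treatments side by side and not 2 doses of 1 agent.

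Within the ring, the share of *mcm7* was lowest in mutant vehicle brains. Of all reads on *mcm2* to *mcm7*, *mcm7* took 45.6, 46.4 and 67.7% with MPH, 43.3, 57.9 and 68.5% with valproate, 32.3 and 36.7% in mutant vehicle brains and 55.7 and 69.8% in WT brains. The 2 mutant vehicle libraries had the lowest shares of the 10. Reads per gene depend on its length, so these shares compare libraries and do not give the makeup of the complex.

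Among *mcm2* to *mcm6*, the share of *mcm3* was 36.9, 36.7 and 28.3% with MPH, 29.2, 32.3 and 23.8% with valproate, 19.9 and 18.9% in mutant vehicle brains and 18.7 and 27.1% in WT brains. It was higher in all MPH libraries than in the mutant vehicle and WT libraries, by 28.3 against 27.1% at the nearest. The share of *mcm2* ran the other way, at 17.2 to 22.1% with MPH and 18.0 to 27.4% with valproate, against 29.5 and 30.0% in mutant vehicle and 29.1 and 30.0% in WT brains. These shares were not tested.

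**Figure D3:**
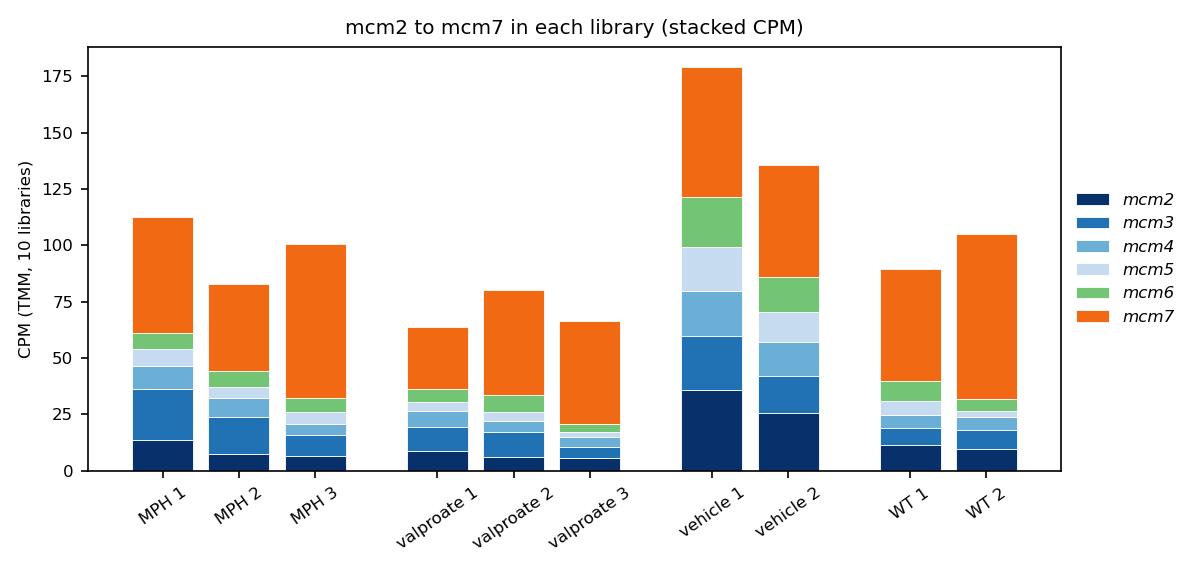
Stacked level (CPM) of *mcm2* to *mcm7* in each of the 10 libraries, grouped as MPH, valproate, vehicle mutants and WT. The *mcm2* to *mcm6* part is 86.1 and 121 CPM in the 2 vehicle mutant libraries and 20.9 to 61.2 CPM in the other 8, while the *mcm7* part is 27.6 to 73.4 CPM with no such separation.

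Over the 10 libraries, *mcm2* to *mcm6* followed their common profile (the mean of standardised log2 CPM of *mcm2* to *mcm7*) with Pearson's r of 0.826 (*mcm3*) to 0.963 (*mcm5*). *mcm10* had 0.714 and *mcm7* 0.304, although *mcm7* is part of the mean. Between single genes, r was highest for *mcm5* and *mcm6* (0.96) and for *mcm2* and *mcm4* (0.936). Without the 2 mutant vehicle libraries these became 0.856 and 0.731. Other pairs fell further, *mcm2* and *mcm6* from 0.887 to 0.434 and *mcm4* and *mcm6* from 0.869 to 0.445, while *mcm3* and *mcm4* went from 0.856 to 0.876. Over those 8 libraries r with the profile was 0.774 (*mcm6*) to 0.904 (*mcm5*) for *mcm2* to *mcm6*, which are all part of the mean, and 0.03 for *mcm10*. The libraries of a group share their treatment, so these are descriptions of 10 libraries in 4 groups.

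The 10 genes that followed the profile most closely, of 17631 compared, had r between 0.892 and 0.945. They were *tk1*, thymidine kinase, *tuba1c* and *tuba1a*, alpha-tubulins, *uhrf1*, which maintains DNA methylation behind the fork, *top2a*, the topoisomerase that untangles DNA of dividing cells, *wasf2*, *lmnl3*, *khsrp*, *tktl2* and *vars1*. *tk1* and *wasf2* kept an r of 0.906 and 0.924 without the mutant vehicle libraries, and the other 8 then had 0.544 to 0.745. *tk1* had 1.68, 1.28 and 1.20 CPM with MPH and 0.533, 0.740 and 0.323 CPM with valproate. It had 3.78 and 3.501 CPM in mutant vehicle brains and 1.78 and 0.882 CPM in WT brains. It was thus highest in the mutant vehicle libraries and lowest with valproate. Since *tk1* was chosen for its likeness to the profile, this order is not a separate observation.

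The factors that load and fire the MCM ring were followed in a list of 25 genes (the origin recognition complex, the loaders *cdc6* and *cdt1* with their inhibitor geminin, the helicase partners *cdc45* and GINS, firing factors and the kinase that activates them, and the MCM relatives *mcm8* and *mcm9*). Their median log2 fold change in mutant vehicle against WT was 0.446, with 19 higher and 6 lower, against 1.48 for the MCM genes. At an unadjusted p under 0.05, 4 were higher (*orc4* 0.63, *cdc7* 2.19, *gins4* 1.80 and *wdhd1* 1.56) and 0 lower, where 4.8% of all genes were called higher and 5.22% lower. No gene of this list had an adjusted p under 0.05 in edgeR in this or in either drug comparison.

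With MPH against vehicle the median of the 25 was −0.26 (9 higher, 16 lower), and with valproate it was −0.418 (5 higher, 20 lower). At an unadjusted p under 0.05, 1 was higher and 1 lower with MPH, where 6.73% of all genes were called higher and 4.97% lower, and 1 was higher and 3 lower with valproate, where 9.08% of all genes were called higher and 7.82% lower. *wdhd1*, a replisome scaffold, had −1.84 with MPH and −1.26 with valproate, and *cdc7*, the kinase that phosphorylates the ring to start replication, had −2.03 with valproate at 0.469 CPM on average. *mcmbp*, which binds MCM proteins, had −0.75 with valproate. *mtbp*, a partner of the firing factor treslin, went the other way, with 0.71 with MPH and 0.59 with valproate. Apart from *orc4*, *mcmbp* and *mtbp*, which with *topbp1* have the most reads of the list, these genes were picked after their values were seen, as were *cdc6*, *cdt1*, *mcm8* and *mcm9* below, which are given for their roles.

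Neither of the 2 loaders had an unadjusted p under 0.05 in these 3 comparisons. *cdc6* had 0.45 in mutant vehicle against WT, 0.17 with MPH and −0.08 with valproate against vehicle, and *cdt1* had 0.43, 0.81 and −0.20 in the same order, with standard errors of 0.36 to 0.56. *topbp1*, a firing factor, had −0.06 in mutant vehicle against WT (standard error 0.19), and its value with MPH was −0.38 and with valproate −0.28. *mcm8* and *mcm9*, which encode a separate helicase used in recombination repair, had 1.09 and −0.01 in mutant vehicle against WT, −0.42 and −0.52 with MPH and −0.69 and −0.37 with valproate, with adjusted p of 0.471 or more.

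The G1/S regulators were a mixed list of cyclins, kinases and E2F factors, with *rb1*, *rbl1* and *rbl2*, which restrain E2F. They had a median of 0.274 over 24 genes in mutant vehicle against WT. At an unadjusted p under 0.05 in edgeR, 2 were higher and 0 lower, against the 4.8% and 5.22% of all genes given above. The 2 higher were *rb1* (0.62) and *ccna2* (1.78), named here after their values were seen. The median was −0.449 with MPH (1 higher, 3 lower, against 6.73% and 4.97% of all genes) and −0.399 with valproate (0 higher, 6 lower, against 9.08% and 7.82% of all genes). *ccnd1*, a cyclin of G1 phase, had −0.53 with MPH (adjusted p = 0.37) and −0.67 with valproate (adjusted p = 0.112). The list of 11 cell cycle inhibitors also holds genes around p53 that are not inhibitors, such as *mdm2*, which opposes p53, and *ccng1*. Its median was −0.0425 in mutant vehicle against WT (2 higher, 9 lower). Against vehicle it was 0.159 with MPH (6 higher, 5 lower) and −0.0453 with valproate (5 higher, 6 lower). Among them *cdkn1a*, which encodes the p21 brake and is named here after its values were seen, had 77, 39 and 195 reads with MPH, 50, 135 and 132 with valproate, 2 and 31 in mutant vehicle brains and 23 and 10 in WT brains. Its 2 mutant vehicle libraries lay far apart. Its log2 fold change was 2.58 with MPH (standard error 1.01, adjusted p = 0.374) and 2.74 with valproate (standard error 0.89, adjusted p = 0.195) against vehicle, and 0.008 in mutant vehicle against WT (standard error 1.12). Against WT, without the mutant vehicle libraries, it was 2.58 with MPH (standard error 0.78, adjusted p = 0.285 in edgeR). With valproate it was 2.76 against WT (standard error 0.61, adjusted p = 0.128 in edgeR). The study reports more *cdkn1a* in the mutant and less after MPH, by RT-qPCR of brain and by RNAscope in the optic tectum. These counts did not show that. *cdkn1cb*, a related inhibitor also named after its values were seen, was the 1 of the 11 lower at an unadjusted p under 0.05 in mutant vehicle against WT, with −1.08 (standard error 0.41, adjusted p = 0.429). The median of the other list, 17 replication checkpoint genes, was 0.115 in mutant vehicle against WT, −0.0448 with MPH and −0.145 with valproate.

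**Figure D4:**
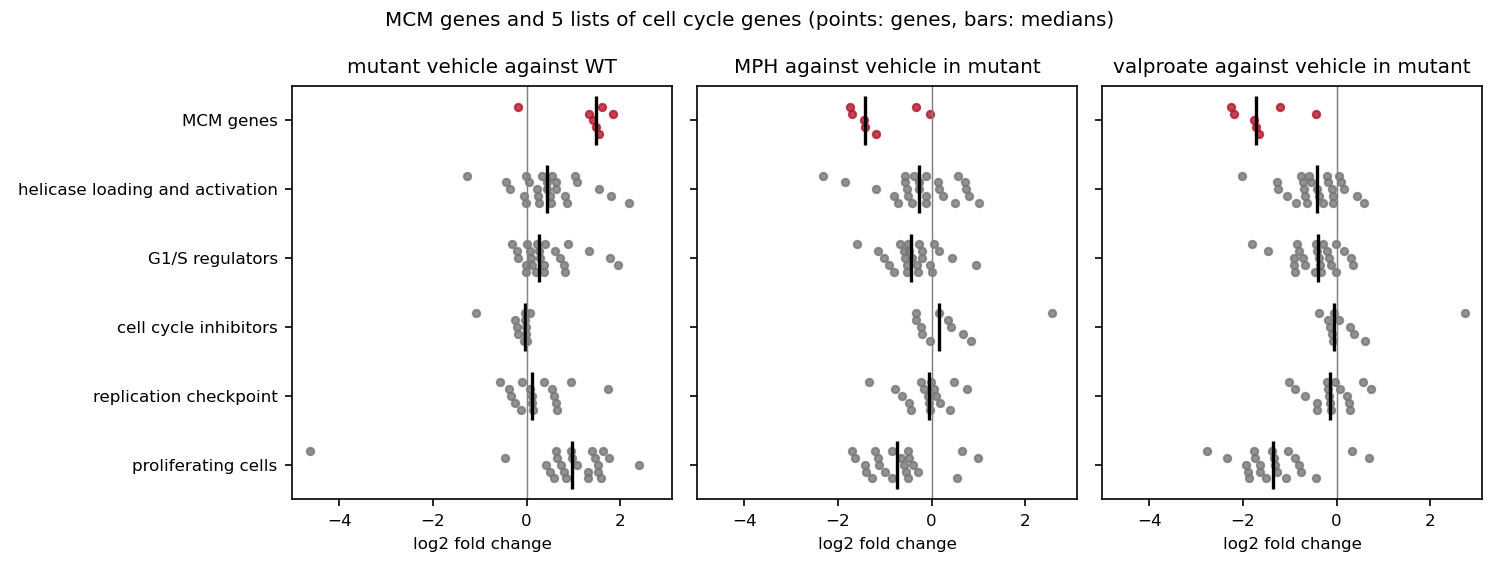
Log2 fold change of each MCM gene (red) and of the genes in 5 cell cycle lists (grey) in mutant vehicle against WT and in each drug against vehicle, with a black bar at each list's median. The MCM medians of 1.48, −1.42 and −1.72 lie further from 0 than those of the 5 lists in all 3 panels.

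Markers of proliferating cells were in sum highest in the mutant vehicle brains as well. Their 24 genes summed to 220.3, 159.2 and 143.9 CPM with MPH, 157.7, 127.1 and 107.2 CPM with valproate, 296.8 and 231.5 CPM in mutant vehicle brains and 139.2 and 158.6 CPM in WT brains, with MPH replicate 1 close to the lower mutant vehicle library. In mutant vehicle against WT the median log2 fold change was 0.98, with 21 of 23 higher, and 12 were higher and 1 lower at an unadjusted p under 0.05, where 4.8% and 5.22% of all genes were. With MPH against vehicle it was −0.746, with 19 of 22 lower, of which 8 at an unadjusted p under 0.05, where 4.97% of all genes were. With valproate it was −1.35, with 20 of 22 lower, of which 17 at an unadjusted p under 0.05, where 7.82% of all genes were. By edgeR's adjusted p, 1 marker was called in mutant vehicle against WT (0.193% of all genes), 1 with MPH (0.216%) and 0 with valproate (0.131%). *pcna*, the sliding clamp of the fork and the marker with the most reads, had 0.65 in mutant vehicle against WT (adjusted p = 0.307), −0.30 with MPH (standard error 0.28, adjusted p = 0.733) and −0.75 with valproate (adjusted p = 0.193). MPH replicate 1 had 3269 reads of *pcna*, against 3213 and 2315 in mutant vehicle brains. At 92.8 CPM on average, *pcna* weighs most in the sum, so the high sum of that library does not speak for the markers as a set. The next marker by mean level, *rrm1* (23.7 CPM), had 487 reads in MPH replicate 1, against 992 and 729 in mutant vehicle brains.

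The called genes were an *rrm2* row (ENSDARG00000020711), a subunit of ribonucleotide reductase, with 2.40 in mutant vehicle against WT (adjusted p = 0.0344), and *top2a*, with −1.70 under MPH (adjusted p = 0.0491). A second *rrm2* row (ENSDARG00000078069), picked after its values were seen, had −4.64 in mutant vehicle against WT (adjusted p = 0.156). The called row had 200 and 233 reads in mutant vehicle and 42 and 40 in WT brains. It had 57, 91 and 159 reads with MPH and 43, 88 and 85 with valproate. The second row had 0 and 5 reads in mutant vehicle and 74 and 57 in WT brains, more than the called row in WT. With MPH it had 0, 0 and 0 reads and with valproate 0, 1 and 1, so it was low in every mutant library, with or without drug. The value of 2.40 is thus that of 1 row, and the change of *rrm2* over both rows was not tested. The part that the number of dividing cells takes in the MCM values was not tested.

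Markers of other cell types differed between groups too. Radial glia markers, 18 genes, summed to 6043 to 6981 CPM with MPH, 5297 to 7277 CPM with valproate, 7358 and 8694 CPM in mutant vehicle and 5907 and 6427 CPM in WT brains, with none at 0. Red blood cell markers, 8 genes of which 1 was at 0 in every library, summed to 102.6, 79.1 and 330.2 CPM with MPH, 76.9, 103 and 97.9 CPM with valproate, 341.6 and 353.3 CPM in mutant vehicle brains and 143.3 and 333 CPM in WT brains. Oligodendrocyte markers summed to 7966 to 9985 CPM with MPH, 6579 to 10770 CPM with valproate, 10720 and 13730 CPM in mutant vehicle and 9239 and 14500 CPM in WT brains. *mbpa* weighs most in that sum, at 6817 CPM on average. Against vehicle all 13 had lower estimates with MPH (median −0.437) and with valproate (median −0.454). At an unadjusted p under 0.05 in edgeR, 5 and 7 were lower, where 4.97% and 7.82% of all genes were. In mutant vehicle against WT, 7 were higher and 6 lower. With valproate against vehicle, 3 of 6 red blood cell genes tested fell at an adjusted p under 0.05 in edgeR, where 0.131% of all genes were called. Their log2 fold changes were −2.02 for *hbaa1*, a globin, −1.88 for *slc4a1* and −1.65 for *alas2*. A *fabp7* row of the radial glia list (ENSDARG00000034650, −1.61) and *tubb5* of the progenitor list (−1.44) also fell at that threshold, 1 of 17 and 1 of 19 tested. A *vim* row of the radial glia list (ENSDARG00000044501) was lower with valproate than in WT (−1.63, adjusted p = 0.0459 in edgeR), where 0.115% of all genes were called. It had 398, 319 and 393 reads with valproate, 957 and 795 in mutant vehicle and 1436 and 1006 in WT brains. The second *vim* row (ENSDARG00000010008) had 1288, 1568 and 1290 reads with valproate, 1761 and 1475 in mutant vehicle and 1668 and 2553 in WT brains. The mutant vehicle libraries were at or near the top of the radial glia, red blood cell and oligodendrocyte sums. Skeletal muscle markers went the other way, with a median log2 fold change of −1.27 in mutant vehicle against WT. They summed to only 8.88 and 6.32 CPM in mutant vehicle and 8.6 and 29.8 CPM in WT brains, so WT replicate 1 lay at the mutant vehicle level. Their median was 1.09 with MPH and 1.18 with valproate against vehicle. The part of any of these cell types in the MCM values was not tested.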

How the data were processed

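The data are RNA-seq of whole zebrafish brain. The authors had the paired-end reads made by BGI, filtered and trimmed them, aligned them with STAR 2.6.1d to zv10 and deposited raw counts per gene, as counted by STAR. Which strand setting was counted is not given in the sources used here. Symbols come from a table of Ensembl identifiers (26433 of 32266 rows matched) and are written in lower case.

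Each comparison was fitted on the counts of its own groups in edgeR 4.0.16 (R 4.3.3), after filterByExpr (at least 10 counts, total of at least 15) and with TMM factors, the two-sided quasi-likelihood test and Benjamini-Hochberg adjustment over all genes tested (threshold 0.05). CPM used TMM over all 10 libraries. Median depth was 21647733.5 counts. The 95% intervals come from the standard error of the edgeR fit and include the spread between libraries. Alternatives were DESeq2 1.42.0, its size factors, other filters, all 10 libraries in one fit, a replicate block, leaving out each library and, added after seeing the data, library size alone. The edgeR script was tested on simulated data.

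The named genes were the 8 members, genes of each list with an adjusted p under 0.05 or among the 4 highest by mean CPM, and the 10 genes most like *mcm2* to *mcm7* (Pearson's r of log2 CPM, prior count 2, mean CPM of at least 1), with others said to be picked later. Members and lists were chosen with earlier results of these data known. No sequence but the study's primers was used here.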

Additional observations from a re-analysis of the deposited data

How the results depend on the processing

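The number of MCM genes with an adjusted p under 0.05 depended on the processing, while the medians kept their sign in the 3 comparisons with mutant vehicle. In mutant vehicle against WT, where the count was 0, it was 5 with DESeq2's Wald test, 5 with no filter, 2 with at least 10 counts in every library and 2 with library size alone; leaving out 1 library gave 0 to 5, and a median of 1.21 to 1.78. With MPH against vehicle, the count of 0 became 3 with DESeq2, 3 with no filter, 1 with all 10 libraries in one fit and 1 with library size alone, and 0 to 3 without 1 library. With valproate against vehicle, the count of 1 became 5 with DESeq2, 4 with no filter, 2 with at least 10 counts in every library and 3 with library size alone, and 0 to 4 without 1 library. Without 1 library, the median ran from −0.04 to 0.45 for MPH-treated mutants against WT and from −0.544 to 0.00447 for valproate-treated mutants against WT. A fit that leaves 1 library in a group assumes that it varies like the other group. The cause was not tested. The count between the drugs was 0 under every alternative. Outside that comparison, the share of all genes called under an alternative was not worked out. Whether a higher count was particular to the MCM genes was therefore not tested.

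Over all genes that passed the filter, deviations of same-numbered libraries correlated at −0.188 to 0.136, which does not settle a pairing for the MCM genes. The sum of *mcm2* to *mcm6* fell with the replicate number in every group. It was 61.2, 44.4 and 32.5 CPM with MPH and 36.2, 33.8 and 20.9 CPM with valproate. In mutant vehicle it was 121.3 and 86.1 CPM, and in WT 39.6 and 31.7 CPM. What the numbers stand for is not given in the labels, and a pairing was not tested. With the number as a replicate block, the counts were 4 for mutant vehicle against WT, 4 for MPH against vehicle, 2 for valproate against vehicle and 1 for MPH-treated mutants against WT (*mcm3*), and *mcm4* in valproate-treated mutants against WT turned to 0.0911.

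Other log2 fold changes turned sign only where uncalled. Over the fits without 1 library, *mcm7* ran from −0.443 to 0.116 in mutant vehicle against WT and from −0.269 to 0.149 with MPH against vehicle. For MPH-treated mutants against WT, *mcm2* ran from −0.566 to 0.0105, *mcm5* from −0.04 to 1.04, *mcm6* from −0.318 to 0.45, *mcm7* from −0.482 to 0.0684 and *mcm10* from −0.827 to 0.121, and *mcm6* had −0.114 with library size alone. For valproate-treated mutants against WT, *mcm3* ran from −0.0405 to 0.419, *mcm4* from −0.289 to 0.104, *mcm5* from −0.846 to 0.229 and *mcm6* from −0.61 to 0.159. Library size alone moved the median of all genes in MPH-treated mutants against WT to −0.154 from −0.0162. Depth left the second *mcm6* row untested and *mcm10* at 3 to 41 reads per library.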
